A study of Mus musculus with 12 samples.

Results

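The hippocampus of N40K transgenic mice was compared at 12 and at 3 months of age, with 3 samples at each age, 6 of the 12 samples of the series. The samples were chosen by their labelled genotype and age, and 13681 of 23352 gene entries, those at 1 FPKM or more in at least 3 of the 6 samples, were tested. N40K is a truncated product of U1-70K, the protein of the U1 small nuclear ribonucleoprotein that the gene Snrnp70 encodes. Mice of 1 transgenic line, Tg396, on the C57BL/6J strain, carried it in neurons under a modified CaMKIIa promoter. Both age groups carried the transgene, so this comparison alone does not measure an effect of N40K. Wild-type littermates of the same strain, 3 at each age, are set beside them. The labels gave neither the sex of the mice nor whether a sample came from 1 mouse or a pool, so p-values measure the spread between these samples.

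The hippocampus forms memories through the circuit of the dentate gyrus and the CA fields, whose principal neurons signal with glutamate under the control of GABA-releasing interneurons. Between young adulthood and middle age, new granule neurons and new oligodendrocytes become scarcer there, and inducible genes of neuronal activity, myelin, and immune defence are among those most often studied. In whole tissue, fewer cells of a type and less RNA per cell cannot be told apart.

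Messenger RNA was measured from poly-A selected, paired reads of 100 bases, and the authors deposited FPKM, that is, fragments scaled to transcript length and to the number of mapped reads. Estimated depth ran from 39.9 to 97.2 M reads a sample at 3 months and from 42.7 to 90.2 M at 12 months. The correlation of log2 values was 0.993 to 0.994 among the 3-month samples, 0.989 to 0.997 among the 12-month samples and 0.972 to 0.98 between the ages. Along the first principal component, with 69.3% of the variance, the ages lay apart. Markers of hippocampal neurons were present in all 6 samples, among them Prox1 of granule neurons at 6.41, 9.34 and 6.11 FPKM at 3 months and 12, 11.2 and 11.1 at 12 months, and Wfs1 of CA1 at 43.6, 39.6 and 49 and 51.9, 44.6 and 42.1 FPKM. Xist was at 17.3 FPKM in 3-month replicate 3 and at most 0.112 FPKM in the other 5, with the Y-linked Ddx3y at 0.0647 FPKM in the former, so 1 of the 6 samples was female, and without it 6683 genes were called, beside 7511 with all 6 samples. Ttr, a choroid plexus gene, ran from 25.2 to 2977 FPKM, highest in 3-month replicate 2 and 12-month replicate 3. The library numbers in the labels also fall into separate runs at the ages, so age and library series cannot be told apart.

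Snrnp70, which counts reads of the endogenous gene and possibly of the transgene, was at 399, 401 and 377 FPKM at 3 months and 305, 320.0 and 259 FPKM at 12 months. The difference between the ages was -0.42 ± 0.08 on the log2(FPKM + 1) scale (SE), with a limma adjusted p of 0.00379. It was -0.19 with an adjusted p of 0.125 once each sample's trend against transcript length was removed, so the call ended there, as it did after quantile normalization of the samples (-0.17, adjusted p = 0.162). Wild-type samples gave -0.51. Hnrnpu, an abundant nuclear RNA-binding protein gene, was at 258, 255 and 259.7 FPKM at 3 months and 284, 288 and 259 FPKM at 12 months, and was not called (adjusted p = 0.117).

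The ages differed in 54.9% of the genes tested: limma, with Benjamini-Hochberg adjustment and a threshold of 0.05, called 2197 genes higher at 12 months (16.1% of those tested) and 5314 lower (38.8%). Most differences were small, with a median size of 0.3 on the log2 scale among called genes. Only 127 genes rose by at least 1 log2 unit and 30 fell by as much. The median over all genes tested was -0.10, so values given here for a gene or a list are to be read against that level rather than against 0. The direction of the small differences depended on the scaling, since 29.3% of calls were higher as deposited, 51.8% after median-ratio scaling, which brings the sample medians of gene ratios together, and 46.1% after quantile normalization.

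The age difference moved with transcript length and GC content. In the shortest decile of genes, with a median transcript of 800 nt, the median difference was -0.26, with 7.1% of genes called higher and 53.9% lower. In the longest decile, with a median of 8221 nt, it was 0.27, with 64.1% higher and 5.7% lower. Measured from the mean of the 3-month group, the 3 samples of 12 months showed the slope alike. They lay at -0.285, -0.251 and -0.231 in the shortest decile and 0.287, 0.241 and 0.28 in the longest. The 3-month samples, which are thereby centred on their own mean, lay between -0.039 and 0.032 in both deciles. In the decile with the highest GC content (median 60.2%) the median difference was -0.33, and in the decile with the lowest (median 40.1%) it was 0.04. Wild-type samples showed the same order, from -0.16 to 0.19 over the deciles of length. With the length trend of each sample removed by a lowess curve, 1512 genes stayed called higher (11.1% of those tested) and 2119 lower (15.5%), and 59 were called in the opposite direction. Several genes and many group counts are therefore given also with this trend removed, the counts mostly as calls that stayed. Genes called only with the trend removed are not in such counts. Under each of 19 alternative settings in which they were tested 1931 genes, 1030 higher and 901 lower, kept their call. Of these 537 lay under the filter of a mean of 5 FPKM, which is 1 of the settings.

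**Figure D1:**
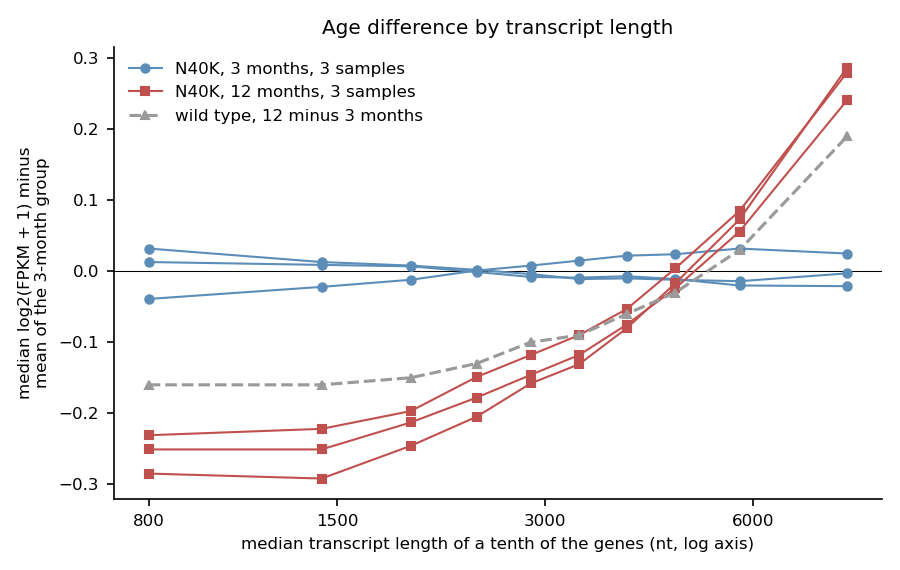
Median difference of log2(FPKM + 1) from the mean of the 3-month N40K group (vertical axis) for deciles of the genes ordered by transcript length (horizontal axis, nt, log scale). Each blue or red line is 1 N40K sample and the dashed line is the wild-type difference between the ages; the 3 samples of 12 months run from -0.285, -0.251 and -0.231 in the shortest decile to 0.287, 0.241 and 0.28 in the longest.

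The largest rises were in genes with long transcripts, among them receptor and transporter genes of glutamate signalling. Grin2b, which encodes the GluN2B subunit of the NMDA receptor, was at 0.493, 0.557 and 0.534 FPKM at 3 months and 9.85, 8.14 and 9.32 FPKM at 12 months. It rose by 2.72 ± 0.07 (log2, SE), with an adjusted p of 5.42e-06, and by 1.97 with the length trend removed. Its longest transcript in the annotation measures 24060 nt. Grin2a, which encodes the GluN2A subunit, was at 1.72, 1.9 and 1.81 FPKM at 3 months and 16.2, 14.6 and 15.1 FPKM at 12 months. The difference was 2.54 ± 0.05 (adjusted p = 4.29e-06), or 2.01 with the length trend removed. For both subunits all 12-month values lay several times above all 3-month values. The choice of the largest rises required that the ages did not overlap. The wild-type differences were 2.51 and 2.36.

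Slc1a2, which encodes the main glutamate transporter of astrocytes, was the most abundant of the genes with large rises. It was at 37.8, 46.3 and 42.8 FPKM at 3 months and 229, 198 and 209.5 FPKM at 12 months, a rise of 2.30 ± 0.08 (adjusted p = 8.43e-06), with 1.89 after removal of the length trend and 2.04 in wild type. Dst, which encodes the cytoskeletal linker dystonin, was at 0.286, 0.315 and 0.296 FPKM at 3 months and 6.32, 6.1 and 6.99 FPKM at 12 months, and Kif1b, a kinesin motor gene, at 7.41, 8.54 and 7.5 FPKM at 3 months and 35.9, 34.9 and 35.4 FPKM at 12 months. Tnr, whose product tenascin-R belongs to perineuronal nets, was at 3.88, 4.91 and 4.05 FPKM at 3 months and 21.1, 19.9 and 21.2 FPKM at 12 months, a rise of 2.05 ± 0.08. Erbb4, the neuregulin receptor gene of interneurons, was at 0.314, 0.451 and 0.388 FPKM at 3 months and 4.85, 4.67 and 5.7 FPKM at 12 months. In each of these 5 genes the ages did not overlap, which the choice of the largest rises required, and over all genes 19.3% were higher and 44.3% lower without overlap. Rises of 2.37 to 2.62 were found for Zbed6 (2.62 ± 0.15), a transcription factor gene that lies inside another gene, for the aminopeptidase gene Lnpep (2.40 ± 0.12) and for the diacylglycerol kinase gene Dgkh (2.37 ± 0.11). The noncoding RNA 1700020I14Rik rose by 2.09 ± 0.06. These 11 genes all had transcripts of at least 5007 nt and kept their call under each alternative in which they were tested, Grin2b, Dst and Erbb4 being under the filter of a mean of 5 FPKM.

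Among genes with a mean of at least 20 FPKM, further large rises were in Son, a splicing cofactor gene, at 12.8, 13.9 and 12.4 FPKM at 3 months and 37.3, 35.4 and 36.5 FPKM at 12 months, and in Sorl1, the sorting receptor gene associated with Alzheimer's disease, at 18.1, 18.3 and 18.3 FPKM at 3 months and 47.8, 43 and 43.7 FPKM at 12 months. Peg3, a paternally expressed zinc finger gene, rose by 1.31 ± 0.06, Cacna1e, a calcium channel gene, by 1.13 ± 0.07, and the RNA helicase gene Ddx17, which overlaps Kdelr3, by 1.28 ± 0.04. With the length trend removed these 5 differences were 1.14, 0.88, 1.04, 0.60 and 1.29. The wild-type differences ran in the same direction, between 0.79 and 1.12.

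The largest falls were in a pair of structured RNAs that are transcribed by RNA polymerase III and carry no poly-A tail. Rpph1, the RNA of RNase P, was at 17.1, 9.4 and 23.8 FPKM at 3 months and 0.144, 0.102 and 0.33 FPKM at 12 months, a difference of -3.82 ± 0.28 on the log2(FPKM + 1) scale (SE, adjusted p = 0.000112). Rmrp, the RNA of RNase MRP, was at 6.81, 5.26 and 13.8 FPKM at 3 months and 0.425, 0.121 and 0.501 FPKM at 12 months, a difference of -2.75 ± 0.30 (adjusted p = 0.000387). In these RNAs, whose choice required no overlap between the ages, the highest 12-month value lay more than 10 times below the lowest 3-month value. Wild-type samples showed the same, with Rpph1 at 23.9, 9.23 and 19.6 FPKM at 3 months and 0.191, 0.0694 and 0.127 FPKM at 12 months. Reads of an RNA without a tail depend on what poly-A selection lets through, and the part of library preparation in these values was not tested.

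Falls in protein-coding genes were smaller. Tnfrsf25, a death-domain receptor gene of the tumour necrosis factor family, was at 33.1, 38.6 and 36.2 FPKM at 3 months and 14.1, 11.2 and 9.63 FPKM at 12 months, a difference of -1.56 ± 0.12. Klf2, a transcription factor gene of endothelium and quiescent lymphocytes, was at 4.41, 5.51 and 4.96 FPKM at 3 months and 1.67, 1.12 and 1.43 FPKM at 12 months, and Gadd45g, a stress-induced gene, at 15.7, 18.4 and 17.8 FPKM at 3 months and 6.91, 6.65 and 7.64 FPKM at 12 months. Ddit4, an inhibitor of mTOR signalling that stress and glucocorticoids induce, was at 33.6, 36.4 and 32.8 FPKM at 3 months and 19.7, 15.7 and 16.3 FPKM at 12 months. Rbm3, the cold-inducible RNA-binding protein gene, was at 38.5, 39.1 and 37 FPKM at 3 months and 19.3, 20.4 and 18.6 FPKM at 12 months, and overlaps 2900002K06Rik. The choice of these 5 genes required that the ages did not overlap, and with the length trend removed their differences were -1.33, -1.09, -0.91, -0.73 and -0.79. Aldoart1 (-1.21 ± 0.09), Tm6sf2 (-1.14 ± 0.09), Gm14378 (-1.14 ± 0.04), Crip1 (-1.10 ± 0.14) and Tmem54 (-1.14 ± 0.10, overlapping Hpca) completed the 12 largest falls with Arc and Fos. Aldoart1 is a near-identical copy of Aldoa, so its reads may be those of the parent gene. The haemoglobin gene Hba-a2 fell by 0.97 ± 0.21, but this call did not hold under every alternative, and Hba-a1, a near-identical copy, was not called.

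**Figure D2:**
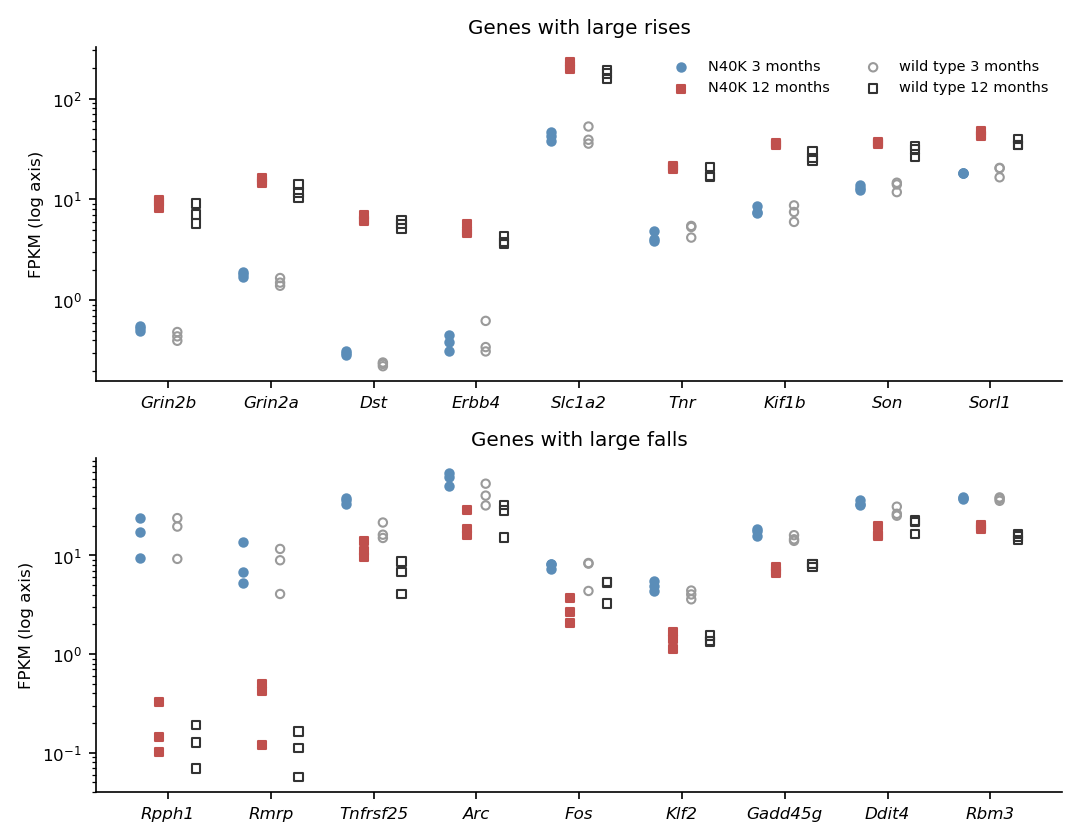
FPKM (vertical axes, log scale) of genes with large rises (top) and large falls (bottom), 1 point a sample, for N40K mice (filled) and wild type (open) at 3 (circles) and 12 months (squares). Grin2b rises from 0.493, 0.557 and 0.534 to 9.85, 8.14 and 9.32 FPKM and Rpph1 falls from 17.1, 9.4 and 23.8 to 0.144, 0.102 and 0.33 FPKM in N40K mice, with wild-type samples close to them at the same ages.

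Immediate early genes, which neuronal activity and growth factors induce within minutes, stood lower as a group at 12 months. Of 29 genes in the list 28 were tested, of which 18 fell, 1 rose and 9 were not called, against 38.8% lower among all genes. Their median was -0.65, beside -0.10 over all genes, and -0.53 with the length trend removed, when 17 of the 18 falls stayed called. These 17 genes kept their call under each of the 19 alternatives in which they were tested, 6 of them being under the filter of a mean of 5 FPKM. The summed FPKM of the list was 371.6, 419.4 and 432.8 at 3 months and 295.1, 247.7 and 254 at 12 months.

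Immediate early genes are known for short control sequences near their start sites that bind activity-dependent factors. The 250 bases before the start sites of 4 members that fell are shown. Each holds the cAMP response element (CRE), bound by CREB, or a shorter form of it. These 4 are examples that carry it, and a link between the element and the falls was not tested. The sequences come from RefSeq on GRCm38.p6, another build than that of the expression values, and run 5′ to 3′ on the strand of the gene. Capitals mark the full element TGACGTCA in Dusp1 and Btg2 and the shorter form TGACG or CGTCA in Fos and Nr4a1.
Fos (chr12:85473640-85473889, + strand): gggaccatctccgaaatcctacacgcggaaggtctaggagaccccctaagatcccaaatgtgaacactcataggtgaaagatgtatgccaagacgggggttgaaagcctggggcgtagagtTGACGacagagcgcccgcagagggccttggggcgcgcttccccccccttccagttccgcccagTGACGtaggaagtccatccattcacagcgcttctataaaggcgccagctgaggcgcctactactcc
Nr4a1 (chr15:101266596-101266845, + strand): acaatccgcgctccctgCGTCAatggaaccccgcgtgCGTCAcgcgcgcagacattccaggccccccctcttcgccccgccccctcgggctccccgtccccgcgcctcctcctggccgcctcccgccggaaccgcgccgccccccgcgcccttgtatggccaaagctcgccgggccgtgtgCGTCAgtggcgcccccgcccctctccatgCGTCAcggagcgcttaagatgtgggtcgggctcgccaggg
Dusp1 (chr17:26508473-26508722, - strand): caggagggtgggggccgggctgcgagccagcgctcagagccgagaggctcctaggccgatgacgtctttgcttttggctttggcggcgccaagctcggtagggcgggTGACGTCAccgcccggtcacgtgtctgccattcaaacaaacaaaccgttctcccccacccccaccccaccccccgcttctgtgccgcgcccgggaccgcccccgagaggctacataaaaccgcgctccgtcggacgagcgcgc
Btg2 (chr1:134079156-134079405, - strand): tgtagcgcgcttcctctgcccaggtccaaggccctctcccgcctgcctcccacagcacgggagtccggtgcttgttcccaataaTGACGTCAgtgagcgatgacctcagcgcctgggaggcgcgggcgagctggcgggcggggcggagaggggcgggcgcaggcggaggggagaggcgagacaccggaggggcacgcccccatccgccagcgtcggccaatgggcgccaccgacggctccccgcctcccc
In Fos the short element nearest the start begins 66 bases before it, and in Nr4a1 there are 4, the nearest 40 bases before it. A full element begins 143 bases before the start of Dusp1 and 166 bases before that of Btg2. Searched on both strands, a short element, which the full one contains, was in this window of 16 of the 22 tested members with a RefSeq entry (72.7%), in 11 of the 14 that fell (78.6%), and in 5347 of all 27025 genes with an entry (19.8%). The full element was in 2 of the 22 members (9.1%) and in 1.8% of all genes, and the CArG box, bound by serum response factor, in 1 of the 22 (4.5%) and in 1.6% of all genes. All genes with an entry include genes not tested here, so their shares are no background for the tested genes. A match in the sequence is a description and does not show that the factor is bound.

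Arc, whose product remodels synapses, had the largest fall of the list. It was at 50.3, 62.3 and 68.3 FPKM at 3 months and 28.8, 16.1 and 18.7 FPKM at 12 months, a difference of -1.50 ± 0.20 (adjusted p = 0.000967), or -1.36 with the length trend removed. Fos, a subunit of the AP-1 transcription factor, was at 7.23, 8.28 and 8.29 FPKM at 3 months and 3.72, 2.08 and 2.67 FPKM at 12 months (-1.24 ± 0.15, adjusted p = 0.000518). Nr4a1, an orphan nuclear receptor gene, was at 33.5, 36.8 and 40.3 FPKM at 3 months and 21.8, 16 and 14.4 FPKM at 12 months (-1.06 ± 0.14). In these 3 genes the highest 12-month value lay below the lowest 3-month value, which their choice among the largest falls required. Over all genes 44.3% were lower without overlap. In each of the 3 genes 12-month replicate 1 was the highest of its group. Further AP-1 and Egr genes fell as well, with differences of -0.95 ± 0.11 for Junb, -0.93 ± 0.10 for Egr2, -1.09 ± 0.22 for Egr4 and -0.70 ± 0.11 for Egr1. Jun was at 27.7, 30.9 and 27.5 FPKM at 3 months and 18.2, 17 and 19.2 FPKM at 12 months, a difference of -0.63 ± 0.06 (adjusted p = 0.000275). Of the feedback phosphatase and growth arrest genes, Dusp1 was at 7.75, 8.82 and 9.14 FPKM at 3 months and 5.11, 4.08 and 4.53 FPKM at 12 months and Btg2 fell by 0.58 ± 0.10. Npas4, a transcription factor gene that neuronal activity induces selectively, was at 5.47, 7.34 and 5.86 FPKM at 3 months and 3.93, 3.002 and 3.05 FPKM at 12 months, with an adjusted p of 0.00185.

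Not every inducible gene was lower. Homer1, a scaffold gene of metabotropic glutamate receptors with a short inducible form, rose from 12.2, 10.3 and 8.73 FPKM to 15.8, 15.7 and 15.7 FPKM (0.56 ± 0.10, adjusted p = 0.00284). Bdnf, the neurotrophin gene, measured 0.01 ± 0.09, Nr4a2 0.03 ± 0.13, Nr4a3 0.04 ± 0.11, Fosl2 0.01 ± 0.07 and Nptx2 0.23 ± 0.10, and none of these was called. In wild type 10 members were called lower and 6 higher, and the list's median was -0.24 there. The difference between the genotypes in the age effect was called for Jun, at -0.61 ± 0.09 (adjusted p = 0.0373), and for no other member. For Arc it was -0.75 ± 0.39 (adjusted p = 0.407) and for Fos -0.76 ± 0.32 (adjusted p = 0.303). The Jun call did not hold under every alternative, and time of day, handling and killing of the mice, on which these genes depend, were not named in the labels.

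**Figure D3:**
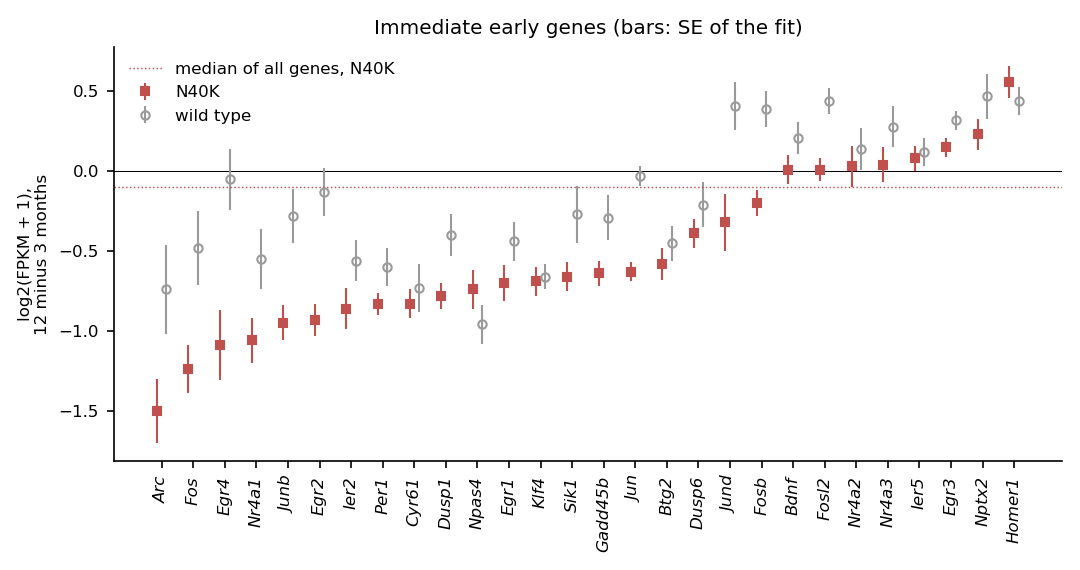
Difference of log2(FPKM + 1) between 12 and 3 months (vertical axis) for the 28 immediate early genes tested, in N40K mice (squares) and wild type (circles), with bars of 1 SE from the limma fits. The dotted line marks the median of all genes in N40K mice, -0.10; 18 squares that passed the test lie below it, and Homer1 lies highest at 0.56.

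Genes of the circadian clock changed in both directions. Of 24 genes 23 were tested, of which 13 fell and 2 rose (38.8% and 16.1% over all genes), with a median of -0.12, and 9 of the falls and both rises stayed called with the length trend removed. Per1 was at 29.4, 27.2 and 29.6 FPKM at 3 months and 17.6, 15.2 and 14.4 FPKM at 12 months (-0.83 ± 0.07, adjusted p = 0.000189), and falls were called too for Per2 (-0.36 ± 0.06), Per3 (-0.38 ± 0.09), Cry1 (-0.44 ± 0.05) and Nr1d1, which encodes REV-ERBα (-0.37 ± 0.03), that of Per3 ending after median-ratio scaling (-0.28, adjusted p = 0.052). Dbp, an output gene of the clock that overlaps Sphk2, fell by 0.76 ± 0.12. The activator gene Clock was at 6.32, 6.25 and 6.32 FPKM at 3 months and 12.6, 12.3 and 13 FPKM at 12 months, and Rora, which activates Arntl, at 0.801, 0.906 and 0.883 FPKM at 3 months and 3.57, 3.49 and 4.19 FPKM at 12 months, rises of 0.90 ± 0.04 and 1.35 ± 0.07. Arntl itself was not called (0.10 ± 0.04). Clock and Rora have transcripts of 9744 and 10878 nt, and with the length trend removed rose by 0.57 and 0.97. In wild type 11 members were called lower and 3 higher. The time of day at which the mice were killed, on which clock genes also depend, was not named in the labels.

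Genes that glucocorticoids induce were called in shares near those of all genes, 38.8% lower and 16.1% higher. Of 22 genes 20 were tested, of which 10 fell and 3 rose (median -0.15), and 8 falls and 1 rise stayed called with the length trend removed. Tsc22d3, which encodes the glucocorticoid-induced leucine zipper and is counted also among the clock genes, was at 26.1, 27.2 and 26.9 FPKM at 3 months and 16.8, 16.1 and 15.4 FPKM at 12 months (-0.70 ± 0.04, adjusted p = 5.7e-05). Sgk1, a kinase gene, was at 32.8, 34.6 and 35.1 FPKM at 3 months and 19, 16.3 and 27.1 FPKM at 12 months, and Arrdc2 fell by 0.62 ± 0.05. Fkbp5, another target, measured -0.06 ± 0.11 and was not called. The receptor gene Nr3c1 rose by 0.23 ± 0.04, or 0.10 (adjusted p = 0.0755) with the length trend removed. Wild-type samples had 6 members lower and 2 higher. For Tsc22d3 the difference between the genotypes was -0.51 ± 0.08, with an adjusted p of 0.0628.

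Genes of the p53 response and of senescence were lower or not called, against 38.8% lower and 16.1% higher over all genes. Of 24 genes 20 were tested, 14 fell and 0 rose (median -0.30, or -0.21 with the length trend removed, when 11 stayed called). Gadd45g, given above, fell most, followed by the apoptosis genes Bbc3 (-0.72 ± 0.09) and Bax, which was at 39.5, 47.6 and 45.9 FPKM at 3 months and 27.5, 29.5 and 29.4 FPKM at 12 months. Trp53 itself was at 16.2, 15.8 and 16.9 FPKM at 3 months and 12.5, 11.5 and 12.2 FPKM at 12 months (-0.41 ± 0.05). Cdkn1a, which encodes the cell cycle inhibitor p21, measured 0.13 ± 0.11 and was not called, though with the length trend removed it was called higher at 0.34 (adjusted p = 0.0375). Hmgb2, a chromatin protein gene of dividing cells, was at 2.49, 2.24 and 2.55 FPKM at 3 months and 1.32, 1.23 and 1.41 FPKM at 12 months.

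The clustered protocadherins, neuronal adhesion molecules that give each neuron a surface identity, stood higher at 12 months. Of 35 genes 30 were tested, of which 22 rose and 0 fell, against 16.1% higher among all genes, and 19 stayed called with the length trend removed. The median was 0.33, and 0.36 with that trend removed. Pcdhb16 was at 0.728, 0.699 and 0.679 FPKM at 3 months and 2.6, 2.35 and 2.21 FPKM at 12 months (0.99 ± 0.07, adjusted p = 8.31e-05). Pcdhb2 was at 0.438, 0.406 and 0.415 FPKM at 3 months and 2.04, 1.57 and 1.74 FPKM at 12 months (0.97 ± 0.08), Pcdhb19 at 0.493, 0.548 and 0.483 FPKM at 3 months and 1.55, 1.38 and 1.31 FPKM at 12 months and Pcdhb6 at 0.723, 0.638 and 0.615 FPKM at 3 months and 1.72, 1.38 and 1.48 FPKM at 12 months. These levels are low. Every 12-month value of the 4 genes, named for the smallest p of the list, exceeded every 3-month value, as in 19.3% of all genes. The β genes share much sequence and the α and γ genes share their last exons, so the split of reads between members is uncertain. The summed FPKM of the list was 102.3, 93.1 and 96 at 3 months and 126.9, 120.5 and 120.7 at 12 months. FPKM are scaled to transcript length and the list holds only some α and γ genes, so this sum too can move with that split. In wild type 13 members were called higher and 1 lower, with a median of 0.15, and no member passed the test of the difference between the genotypes.

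Receptor genes of inhibitory and excitatory transmission gave more rises than falls, beside 16.1% higher and 38.8% lower over all genes. Of 18 genes of GABA receptors and their scaffold 15 were tested, 7 rose and 1 fell, and 6 rises stayed called with the length trend removed. Gabrb1, which encodes the β1 subunit of the GABA-A receptor, was at 4.83, 5.03 and 4.72 FPKM at 3 months and 15.6, 14.5 and 17 FPKM at 12 months (1.51 ± 0.06, adjusted p = 1.35e-05). Gabrb2, of the more abundant β2 subunit, was at 19.2, 18.1 and 18.1 FPKM at 3 months and 27.7, 26.6 and 27.6 FPKM at 12 months, and Gabrg3 was at 0.879, 0.712 and 0.569 FPKM at 3 months and 2.21, 2.21 and 2.46 FPKM at 12 months. Gabbr2, of the GABA-B receptor, rose by 0.34 ± 0.05. Gabrd, whose δ subunit mediates tonic inhibition, fell by 0.36 ± 0.07, or -0.15 (adjusted p = 0.169) with the length trend removed. Gphn, the gephyrin scaffold gene, measured -0.05 ± 0.04 and was not called.

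**Figure D4:**
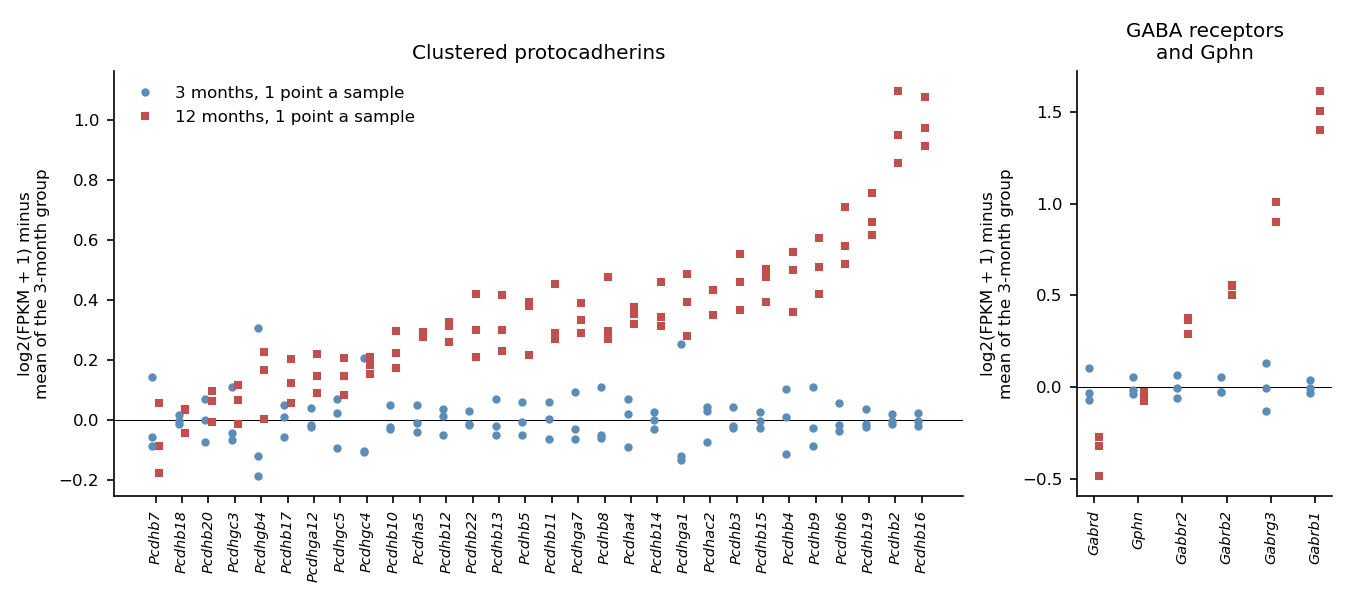
Log2(FPKM + 1) of each N40K sample minus the mean of the 3-month group (vertical axes) for the 30 clustered protocadherins tested (left) and for 5 GABA receptor genes and Gphn, those described here (right), 1 point a sample. Pcdhb16 and Gabrb1 lie highest, with differences of 0.99 and 1.51; Gabrd lies lowest on the right at -0.36.

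Of 27 genes of glutamate receptors and their auxiliary proteins 26 were tested, 11 rose and 3 fell (median 0.14), beside 16.1% and 38.8% of all genes. With the length trend removed 6 rises and 3 falls stayed called. Besides Grin2a and Grin2b the AMPA receptor gene Gria2, whose subunit limits calcium entry, was at 87.7, 82 and 81.5 FPKM at 3 months and 145, 136 and 129.6 FPKM at 12 months (0.70 ± 0.05, or 0.34 with the length trend removed). Gria4 rose by 0.47 ± 0.10 and the metabotropic receptor genes Grm3 and Grm7 by 0.39 ± 0.05 and 0.41 ± 0.05. The kainate receptor gene Grik5 was at 71.1, 65.8 and 70.5 FPKM at 3 months and 47.6, 49.99 and 45.9 FPKM at 12 months, a fall, and the AMPA receptor chaperone gene Cnih2 fell by 0.55 ± 0.08. Grin1, the obligatory NMDA receptor subunit gene, measured -0.06 ± 0.05 and Gria1 0.00 ± 0.04, and neither was called. As deposited, the subunits of a receptor thus did not move alike. Grin1, however, turned to a positive difference once the GC trend was removed.

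In the postsynaptic density 25 of 26 genes were tested, 12 rose and 9 fell, beside 16.1% and 38.8% of all genes. But with the length trend removed 5 rises and 7 falls stayed called and the median turned from 0.10 to -0.09. The scaffold genes Dlg2, Dlgap1 and Dlgap2 rose by 0.45 ± 0.04, 0.45 ± 0.05 and 0.65 ± 0.05, and kept their calls. Homer3, which overlaps Ddx49, fell by 0.60 ± 0.08. In the presynaptic release machinery 27 of 28 genes were tested, 13 rose and 5 fell (median 0.18), and 11 rises and 2 falls stayed called with the length trend removed. Pclo, the active zone scaffold gene with a transcript of 20084 nt, was at 5.82, 5.64 and 6.12 FPKM at 3 months and 13, 11.6 and 11.3 FPKM at 12 months (0.92 ± 0.06, or 0.24 with the length trend removed). Syt2, a calcium sensor gene of fast-spiking interneurons, was at 1.46, 1.29 and 1.59 FPKM at 3 months and 3.25, 2.91 and 2.9 FPKM at 12 months and the vesicle protein gene Sv2c at 1.09, 0.952 and 0.689 FPKM at 3 months and 2.64, 2.48 and 2.9 FPKM at 12 months. Rims3 rose by 1.07 ± 0.16 and Unc13c by 0.69 ± 0.10. Bsn, another active zone scaffold gene, rose by 0.38 ± 0.05 and was called lower, at -0.18, with the length trend removed. The vesicular glutamate transporter gene Slc17a7 was at 369, 383 and 408 FPKM at 3 months and 299, 316 and 282 FPKM at 12 months, a difference of -0.37 ± 0.06 that was not called with the GC trend removed (-0.09).

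Interneuron genes gave more rises than falls, beside 16.1% higher and 38.8% lower over all genes tested. All 26 were tested, 9 rose and 1 fell, and the 9 rises stayed called with the length trend removed, when the median moved from 0.15 to 0.37. The list's median transcript length was 2018 nt, but Reln, Nos1 and Erbb4, its largest rises, have transcripts of 11699, 10123 and 12037 nt. Gad2 and Gad1, which encode the enzymes of GABA synthesis, rose by 0.60 ± 0.15 and 0.36 ± 0.10. Crhbp, which encodes the binding protein of corticotropin-releasing hormone, was at 15.4, 13.2 and 16.1 FPKM at 3 months and 22.7, 24.5 and 22.7 FPKM at 12 months (0.62 ± 0.07, adjusted p = 0.00052). Reln was at 4.002, 3.4 and 4.13 FPKM at 3 months and 6.78, 8.74 and 7.4 FPKM at 12 months, Nos1 at 6.56, 3.98 and 5.4 FPKM at 3 months and 10.5, 10.1 and 10.3 FPKM at 12 months, and the peptide gene Vip rose by 0.44 ± 0.09. Somatostatin (Sst) measured -0.03 ± 0.07, parvalbumin (Pvalb) 0.17 ± 0.12 and neuropeptide Y (Npy) 0.15 ± 0.08, none of them called. Pdyn, the prodynorphin gene of granule neurons that the list also holds, fell by 0.40 ± 0.13. The calls of Pdyn and Gad1 did not hold when any 1 of several samples was left out, though the differences kept their direction. That of Gad1 ended without 3-month replicate 2 (0.29) or 3 (0.32) or without 12-month replicate 3 (0.30). That of Pdyn ended without 3-month replicate 1 (-0.32) or 2 (-0.34) or 12-month replicate 1 (-0.34) or 2 (-0.35). In wild type 11 members were called higher and 0 lower.

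Principal neuron genes changed in both directions, as did all genes tested (16.1% higher, 38.8% lower). Of the 20 genes of mature dentate granule neurons 6 rose and 4 fell, and of the 22 of CA1, CA3 and mossy cells 2 rose and 7 fell. With the length trend removed 3 rises and 4 falls of the granule genes stayed called, and their median turned from 0.04 to -0.04. Of the CA and mossy cell genes 1 rise and 3 falls stayed called. Zbtb20, a transcription factor gene with a transcript of 26901 nt, was at 0.547, 0.713 and 0.635 FPKM at 3 months and 4.71, 3.49 and 4.77 FPKM at 12 months, and Plk5 was at 12.8, 16.4 and 11.9 FPKM at 3 months and 6.63, 6.73 and 6.43 FPKM at 12 months. Rgs14, a marker of CA2, fell by 0.47 ± 0.05. Genes of newborn granule neurons gave 4 rises and 6 falls among 18 tested of 24, with a median of -0.13. With the length trend removed 3 rises and 5 falls stayed called and the median was 0.0. Marcksl1, Sox11, Bhlhe22 and Sox4, named for the smallest p of the list, were all falls. Marcksl1 was at 35.7, 41.3 and 34.6 FPKM at 3 months and 19.5, 22.2 and 20.3 FPKM at 12 months (-0.82 ± 0.08, adjusted p = 0.000234). Sox11, a transcription factor gene of immature neurons, was at 2.09, 1.97 and 2.11 FPKM at 3 months and 1.22, 1.29 and 1.11 FPKM at 12 months, with -0.47 ± 0.06 as deposited and -0.72 with the length trend removed. Bhlhe22 was at 22.6, 30.5 and 22.7 FPKM at 3 months and 15.6, 13.7 and 14.3 FPKM at 12 months and Sox4 fell by 0.39 ± 0.07. Doublecortin (Dcx), the most used marker of new neurons, measured 0.18 ± 0.10 and was not called. Of 28 proliferation genes 14 passed the filter on low values, 8 fell and 0 rose, and 4 falls stayed called with the length trend removed, among them Mcm6 at 7.12, 8.67 and 7.58 FPKM at 3 months and 5.84, 5.49 and 5.43 FPKM at 12 months. Of 20 stem cell genes 18 were tested and 9 fell (38.8% over all genes), among them Hes5 at 8.17, 7.73 and 9.4 FPKM at 3 months and 4.92, 5.75 and 5.43 FPKM at 12 months and Id4, which overlaps A330033J07Rik (-0.58 ± 0.06).

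Genes of the oligodendrocyte lineage gave more falls than rises at each stage, as did all genes tested (38.8% lower, 16.1% higher). Of 24 genes of mature oligodendrocytes and myelin, all tested, 14 fell and 0 rose, with a median of -0.40, but only 5 stayed called with the length trend removed, when the median was -0.22. Mog, a myelin surface glycoprotein gene, was at 35.5, 41 and 49.1 FPKM at 3 months and 26.6, 27.8 and 26.1 FPKM at 12 months (-0.61 ± 0.10, adjusted p = 0.00247, or -0.38 with the length trend removed). Mal was at 75, 80.6 and 90.7 FPKM at 3 months and 55.4, 61.8 and 59.3 FPKM at 12 months and Tspan2, overlapping 2410057H14Rik, at 26.8, 27.9 and 30.4 FPKM at 3 months and 20.3, 22.3 and 21.4 FPKM at 12 months. Mbp, the most abundant myelin gene, was at 679, 762 and 938 FPKM at 3 months and 656, 689 and 717 FPKM at 12 months and was not called. The summed FPKM of the list was 2271, 2463 and 2927 at 3 months and 2020.0, 2100.0 and 2184 at 12 months, with 3-month replicate 3, the female sample, highest. Of 20 genes of newly formed oligodendrocytes 11 fell and 1 rose, and 8 falls stayed called with the length trend removed. Gpr17, which marks the step from precursor to oligodendrocyte and overlaps Lims2, was at 8.84, 7.92 and 9.05 FPKM at 3 months and 6.06, 5.67 and 6.09 FPKM at 12 months (-0.47 ± 0.06, or -0.50 with the length trend removed), and Lims2 fell by 0.67 ± 0.06. Of 19 precursor genes tested 11 fell and 3 rose, and 3 falls and 1 rise stayed called. Pdgfra, the defining receptor gene of precursors, was at 8.65, 7.91 and 7.88 FPKM at 3 months and 8.85, 9.65 and 9.02 FPKM at 12 months, with a called rise of 0.15 ± 0.05 as deposited and 0.00 (adjusted p = 0.99) with the length trend removed.

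Complement genes changed in both directions as deposited. Of 23 genes 18 were tested, 5 rose and 2 fell, beside 16.1% higher and 38.8% lower over all genes. With the length trend removed 9 were called higher and 1 lower. C4b, which encodes the component C4 of the classical pathway, was at 16.8, 16 and 14.1 FPKM at 3 months and 26.8, 25.8 and 28.9 FPKM at 12 months (0.76 ± 0.07, adjusted p = 0.00022, or 0.72 with the length trend removed). C4a, a near-identical neighbour, rose by 0.34 ± 0.08, so the split between both is uncertain. C3, the central component, was at 0.84, 0.888 and 0.858 FPKM at 3 months and 1.14, 2.34 and 2.25 FPKM at 12 months, lower in 12-month replicate 1 than in replicates 2 and 3, and its rise was not called without 12-month replicate 2 (0.50). Properdin (Cfp), which stabilises the alternative convertase, was at 16.4, 15.7 and 17.7 FPKM at 3 months and 9.24, 9.55 and 8.17 FPKM at 12 months, a difference of -0.82 ± 0.07. C1qa measured -0.05 ± 0.05 and was not called, though it was called higher, at 0.21, with the length trend removed.

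As deposited, homeostatic microglial genes changed in both directions, and activation genes were lower or not called. Activation and astrocyte genes fell in shares near that of all genes, of which 38.8% were lower and 16.1% higher. With the length trend removed 9 homeostatic genes were called higher and 1 lower, and 3 activation genes higher and 5 lower. Of the 20 homeostatic genes 3 rose and 4 fell, with Cx3cr1, the fractalkine receptor gene, at 10.4, 11 and 11.1 FPKM at 3 months and 13, 13.1 and 12.2 FPKM at 12 months, P2ry12 not called (-0.08 ± 0.04) and Cd33 at 1.88, 1.98 and 1.74 FPKM at 3 months and 2.99, 3.13 and 2.49 FPKM at 12 months. Of 24 activation and lysosome genes 18 were tested, 8 fell and 0 rose, and 5 stayed called with the length trend removed. Galectin-3 (Lgals3) was at 2.17, 2.17 and 2.51 FPKM at 3 months and 0.466, 0.725 and 0.925 FPKM at 12 months, and Apoe was at 1049, 1179 and 1159 FPKM at 3 months and 815, 836 and 881 FPKM at 12 months, where the call did not hold under every alternative. Among 22 astrocyte genes 2 rose, Slc1a2 by far the most, and 9 fell, of which 1 fall, that of Aldh1l1 at -0.29 ± 0.06, stayed called with the length trend removed. Gfap, the filament gene of reactive astrocytes, was at 86.2, 91.3 and 89.7 FPKM at 3 months and 81.9, 81.7 and 92.9 FPKM at 12 months, and Aqp4 measured -0.07 ± 0.04, and neither was called. Vimentin (Vim) was at 44.1, 45.6 and 36.7 FPKM at 3 months and 22.8, 24.8 and 29 FPKM at 12 months, a difference of -0.70 ± 0.11, and Serpina3n rose by 0.22 ± 0.05.

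Vascular genes were called in shares near those of all genes, of which 38.8% were lower and 16.1% higher. Of 25 endothelial and mural genes 12 fell and 4 rose, and 8 falls and 2 rises stayed called with the length trend removed. Slc2a1, which encodes the glucose transporter of the blood-brain barrier, was at 44.9, 46.2 and 45.7 FPKM at 3 months and 27.1, 27.8 and 30.3 FPKM at 12 months (-0.67 ± 0.05, adjusted p = 8.88e-05). Tie1 was at 5.71, 4.97 and 4.79 FPKM at 3 months and 3.22, 2.87 and 3.17 FPKM at 12 months. Of 23 genes of fibrillar collagens and their processing 18 were tested, 8 fell and 0 rose, with Bmp1, a procollagen proteinase gene, at 28.3, 29 and 27.7 FPKM at 3 months and 17.7, 17.3 and 16.1 FPKM at 12 months and Plod1 at -0.44 ± 0.05 (log2, SE). Elastin (Eln) was at 4.77, 6.32 and 3.12 FPKM at 3 months and 1.56, 1.54 and 2.57 FPKM at 12 months, a difference of -0.97 ± 0.22. Genes of the leptomeninges gave 3 falls among 20, with a summed FPKM of 1548, 1788 and 730.9 at 3 months and 554.8, 741.2 and 1216 at 12 months. The defining meningeal gene Dcn was at 33.2, 24.3 and 12.4 FPKM at 3 months and 14.9, 24 and 28.9 FPKM at 12 months and was not called. Without 3-month replicate 3 the median of the meningeal list was -0.67, beside -0.43 with all 6 samples, and the part of the meninges in the matrix genes was not tested.

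Genes of protein synthesis and respiration, which have short transcripts, gave the most falls by number. They also form the largest lists, and over all genes 38.8% were lower and 16.1% higher. Of the 56 cytosolic ribosomal protein genes 50 fell and 1 rose, with a median of -0.34, and 22 falls stayed called with the length trend removed, when the median was -0.09. Their summed FPKM was 12180.0, 13210.0 and 13050.0 at 3 months and 9717, 9894 and 9684 at 12 months, so the ages did not overlap. Rpl11 was at 223, 240.2 and 241 FPKM at 3 months and 150.1, 149 and 148 FPKM at 12 months (-0.65 ± 0.04, or -0.38 with the length trend removed) and Rplp2 at 396, 412 and 385 FPKM at 3 months and 246, 248 and 227 FPKM at 12 months. Rpl15 fell by 0.11 ± 0.04 as deposited, measured 0.00 after median-ratio scaling and 0.02 after quantile normalization, and was called higher, at 0.11, with the length trend removed. Of 45 genes of oxidative phosphorylation 34 fell and 0 rose (median -0.27), of which 10 stayed called with the length trend removed, when the median was -0.02. Ndufs7, a complex I subunit gene, was at 129, 128 and 129.6 FPKM at 3 months and 81.3, 84.7 and 87.5 FPKM at 12 months and Cox7c, of complex IV, at 197, 199 and 205 FPKM at 3 months and 135, 131 and 134 FPKM at 12 months, and both kept their calls. Processed copies of ribosomal protein genes could share these reads.

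Splicing genes also gave more falls than rises, beside 38.8% lower and 16.1% higher over all genes. Of 28 genes of U1 and the core spliceosome 17 fell and 4 rose, and 5 falls and 1 rise stayed called with the length trend removed. Snrpb, a Sm core gene, was at 77.8, 82.4 and 81.8 FPKM at 3 months and 54.5, 55.8 and 59.4 FPKM at 12 months, and Prpf40b, of a U1-associated protein, at 36.3, 34.2 and 34.7 FPKM at 3 months and 26.6, 27.2 and 25.8 FPKM at 12 months. Luc7l rose by 0.37 ± 0.05 and Luc7l2 fell by 0.49 ± 0.08, both also with the length trend removed (0.36 and -0.44). Of 28 SR protein and hnRNP genes 17 fell and 2 rose, and 6 falls and 1 rise stayed called. Tra2b, an activator of exon inclusion, was at 41.8, 41.4 and 42.1 FPKM at 3 months and 28.2, 26.9 and 27.6 FPKM at 12 months (-0.58 ± 0.03, adjusted p = 5.08e-05). The wild-type differences were -0.31 for Tra2b and -0.28 for Snrpb.

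Small RNA loci numbered 279, of which 56 were higher and 84 lower, beside 16.1% and 38.8% of all genes. Whether their values come from longer transcripts over the locus or from the mature small RNA was not tested. Snora62 was at 77.7, 76.2 and 84.3 FPKM at 3 months and 40.4, 37.4 and 35.5 FPKM at 12 months and Mir1188 at 1.2, 0.919 and 1.25 FPKM at 3 months and 8.77, 7.66 and 7.65 FPKM at 12 months. Mir686, which overlaps Psmb5, fell by 0.79 ± 0.04.

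Among lists with at least 14 genes tested, the medians ran from -0.65 for immediate early genes to 0.33 for clustered protocadherins as deposited, and from -0.53 for immediate early genes to 0.40 for interferon response genes with the length trend removed. Under each alternative in which they were tested, removal of the GC trend included, 17 of the 18 falls of immediate early genes kept their call, 16 of the 22 rises of protocadherins, 7 of the 9 rises of interneuron genes, 8 of the 10 falls of glucocorticoid targets and 20 of the 50 falls of ribosomal protein genes. Of the 16 protocadherins 15 had a mean under 5 FPKM and so no test with that filter. Fewer did so for oxidative phosphorylation (6 of 34 falls), the p53 response (5 of 14), the clock (4 of 13) and myelin (3 of 14), and none of the 3 falls of glutamate receptor genes did. The 28 genes associated with Alzheimer's disease stood near the middle, with 7 rises, 11 falls and a median of -0.02. Aplp1, a relative of the amyloid precursor gene, was at 605, 591 and 659 FPKM at 3 months and 443, 463 and 454 FPKM at 12 months, and Ide, which encodes the insulin-degrading enzyme, at 14.2, 13.6 and 14.3 FPKM at 3 months and 10.6, 10.1 and 11 FPKM at 12 months, both falls. The 23 cholesterol genes tested gave 4 rises and 8 falls, and with the length trend removed the 4 rises and 0 falls stayed called, among them Stard4 at 2.94, 2.76 and 2.64 FPKM at 3 months and 5.14, 4.98 and 4.95 FPKM at 12 months. The counts of other lists stand beside 16.1% higher and 38.8% lower over all genes. There were 3 rises and 11 falls among 24 heat shock genes, 0 and 6 among 22 histocompatibility genes and 2 and 4 among 17 basement membrane genes. With the length trend removed these 3 lists had 6 genes called higher and 4 lower, 4 and 1, and 0 and 9. As deposited there were 2 rises and 3 falls among 14 genes of perineuronal nets and 2 and 4 among 20 reactive astrocyte genes. Histone genes gave 1 and 6 among 14, markers of neighbouring regions 1 and 3 among 21 and ependymal genes 0 and 4 among 14. Blood genes gave 0 and 3 among 7 and choroid plexus genes 0 and 0 among 13.

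**Figure D5:**
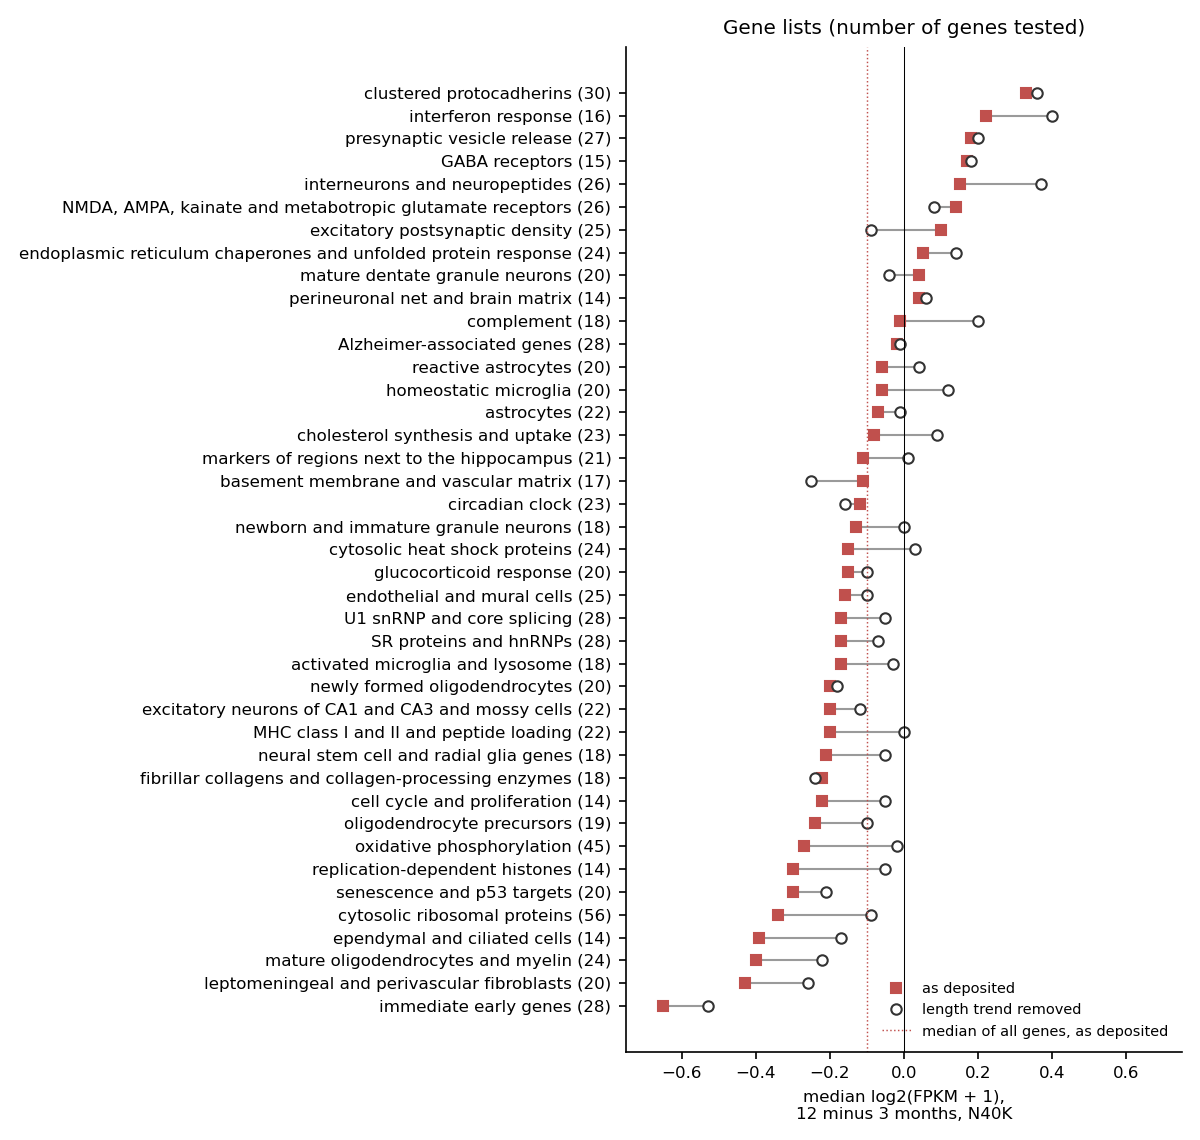
Median difference of log2(FPKM + 1) between 12 and 3 months in N40K mice (horizontal axis) for each gene list with at least 14 genes tested, as deposited (squares) and with each sample's transcript length trend removed (circles). The dotted line marks the median of all genes, -0.10; oxidative phosphorylation moves from -0.27 to -0.02, while immediate early genes stay low, from -0.65 to -0.53, and clustered protocadherins high, from 0.33 to 0.36.

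Wild-type mice showed much the same differences between the ages. In them 5769 of the same genes were called (42.2% of those tested), with a median of -0.076 over all genes, and across the 13681 genes the transgenic and wild-type differences, which share no sample, had a Pearson correlation of 0.82. Genes are not independent replicates, so this is a description, and both comparisons carry the same slope against transcript length. In wild type too the library numbers fall into separate runs at the ages, so age and library series cannot be told apart. Wild-type 3-month replicates 2 and 3 were female, with Xist at 14.6 and 13.5 FPKM, and all wild-type 12-month samples were male. A test of the difference itself, age in transgenic minus age in wild type over all 12 samples, called 9 genes (0.0658% of those tested), and 1976 genes (14.4%) had an unadjusted p under 0.05. Higher in transgenic than in wild type were the age differences of the transferrin receptor gene Tfrc, the interferon-induced GTPase gene Gbp3, the joined histocompatibility entry H2-D1;H2-L, LOC547349 and Mir23b. Lower were those of Jun, of the receptor component gene Ramp2, of Klhl26 and of 9530052E02Rik, which overlaps Irs2. The number called was 0 without 3-month transgenic replicate 3, without 12-month transgenic replicate 2, and without wild-type 3-month replicate 1 or 2 or 12-month replicate 2, 3 without 3-month transgenic replicate 2, 1 without wild-type 3-month replicate 3, 21 without wild-type 12-month replicate 3 and 192 without 3-month transgenic replicate 1.

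Tfrc was at 28, 27.5 and 27.7 FPKM at 3 months and 26.5, 26.8 and 25.3 FPKM at 12 months in transgenic mice, so the ages lay close together. In wild type it was at 29, 30.4 and 26.3 FPKM at 3 months and 18.7, 17.5 and 18.5 FPKM at 12 months, a difference of -0.62. Ramp2 was at 26.8, 30.1 and 30.03 FPKM at 3 months and 14.4, 14.4 and 14.8 FPKM at 12 months in transgenic mice and at 23.3, 24.2 and 24.1 and 17, 17.9 and 17.1 FPKM in wild type. Interferon response genes, of which 16 of 26 were tested, gave 3 rises and 1 fall in transgenic mice (median 0.22). Over all genes 16.1% were higher and 38.8% lower there. In wild type 0 of the list rose and 11 fell (median -0.56), and only Gbp3 passed the test of the difference. The summed FPKM of the list was 75.4, 76 and 66.4 at 3 months and 65.9, 82.4 and 118.9 at 12 months in transgenic mice, highest in 12-month replicate 3, the sample with the most Ttr. Endoplasmic reticulum chaperone genes gave 5 rises and 5 falls among 24 in transgenic mice (median 0.05) and 17 rises and 0 falls in wild type (median 0.35), and none passed the test of the difference. Of the latter list Herpud1 was at 26.4, 27.3 and 27.6 FPKM at 3 months and 18.6, 18.9 and 21.1 FPKM at 12 months, a difference of -0.45 ± 0.05, beside 0.00 in wild type, and Creld2 fell by 0.41 ± 0.07 beside 0.24 in wild type.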

How the data were processed

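The labels describe poly-A selected hippocampal RNA made into TruSeq libraries and sequenced on an Illumina HiSeq. Their extraction text names tumour aliquots, which does not match the labelled tissue. The authors deposited FPKM values in 1 table, with 0 columns left unmapped. CASAVA, STAR, BWA and the genome build mm9 are named, without roles, in the submitters' processing notes. How reads were counted, with which annotation and with or without strand is not given in the sources used here. Overlapping genes are therefore marked. GENCODE M21, on another build, gave transcript lengths, GC content and overlaps for 99.2% of the genes tested, and no coordinates. RefSeq on GRCm38.p6 gave the promoter sequences, matched by symbol.

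Values were tested as log2(FPKM + 1) with limma 3.58.1 in R 4.3.3 (lmFit, eBayes with a mean-variance trend, two-sided, Benjamini-Hochberg over the genes tested, threshold 0.05). The 6 transgenic samples formed the main fit, and all 12 that of the wild-type age difference and of the difference between genotypes. Adjusted p-values come from limma. Fold changes on this scale understate those of low genes. Depth was estimated from the steps between low values, of which 60.6% to 68.8% in the transgenic samples were whole within 0.02 of a read, which is too few for a count test. Samples shared at most 0.016% of their values, so none was a copy of another. The alternatives changed the pseudocount (0.1 or 0.5), the filter (none, or 5 FPKM on average) or the scaling (median-ratio, quantile), or used robust eBayes, the replicate block, all 12 samples in 1 fit, Ttr or Xist as a covariate, the length or GC trend removed (lowess) and each sample left out. Removing both trends was added after seeing the data.

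Genes were named by a rule: the 12 largest rises and falls among called genes without overlap between the ages, 8 each way at a mean of at least 20 FPKM, up to 4 members of each list by p, Snrnp70, Hnrnpu and the genes called between genotypes. Some results under this rule are not reported here. Other members of a list were named after their values were seen. The comparison and the lists were chosen with earlier results of these data known. Lists are described by counts and medians, with no test. The procedure was tested on simulated data. For the calls these held independent genes, few of them changed, as many up as down. They therefore do not show how the calls behave under the slopes seen here. Tables and plots were made with Python 3.11.15, pandas 2.3.3, numpy 2.4.6 and matplotlib 3.10.9.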

Additional observations from a re-analysis of the deposited data

Results flagged for a closer look

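The difference between 12 and 3 months itself differed between transgenic and wild-type mice in 9 entries, by limma's test of the interaction over all 12 samples with adjusted p under 0.05. On the log2 scale with SE, transgenic minus wild type, it was 0.89 ± 0.12 for Gbp3 (adjusted p = 0.0223), 0.79 ± 0.10 for LOC547349, 0.68 ± 0.09 for Mir23b, 0.68 ± 0.10 for the joined entry H2-D1;H2-L and 0.54 ± 0.07 for Tfrc. It was -0.84 ± 0.10 for 9530052E02Rik, which overlaps Irs2, -0.61 ± 0.09 for Jun (adjusted p = 0.0373), -0.50 ± 0.07 for Ramp2 and -0.40 ± 0.06 for Klhl26. For Gbp3 the transgenic samples were at 2.44, 2.2 and 2.85 FPKM at 3 months and 2.15, 2.29 and 2.66 FPKM at 12 months, and the wild-type samples at 3.94, 3.84 and 3.67 FPKM and 1.73, 1.37 and 1.45 FPKM, so the wild-type ages did not overlap and the transgenic ones did. Klhl26, which encodes a kelch protein, was at 19.1, 19.9 and 19.4 FPKM at 3 months and 13, 12.9 and 12.9 FPKM at 12 months in transgenic mice and at 17.5, 17 and 17.6 and 16.1, 15.8 and 14.7 FPKM in wild type. By Xist and Y-linked genes 3 of the 12 mice were female, 1 transgenic and 2 wild type, all of them at 3 months. With Xist in the fit 0 genes were called, the adjusted p-values of the 9 entries lying between 0.0603 and 0.0758, while the differences stayed close to those above, such as -0.87 for 9530052E02Rik and 0.86 for Gbp3. Groups of 3 samples were too small for the test of single outlying samples.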

How the results depend on the processing

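The transgenic age comparison called 7511 genes as fitted. Both directions moved with the scaling: 3328 higher and 3096 lower after median-ratio scaling, 3541 lower after quantile normalization, 2496 lower with the length trend removed and 2690 lower with the GC trend removed. Removing both trends left 4077 calls, 1941 of them lower. The trends removed are those over all genes, so a shared change of long or of short genes is removed with them. Leaving out 1 sample at a time gave 6127 to 7118 calls, 1831 to 2208 higher and 4296 to 5135 lower. Replicate numbers did not mark pairs, since the deviations of same-numbered samples correlated at 0.0, -0.35 and -0.39 over genes, and the replicate block gave 6691 calls in transgenic mice. In the genotype-by-age test 9 calls became 0 with the replicate block, 0 with Xist as a covariate and 14 with Ttr as a covariate, and 0 to 192 when 1 of the 12 samples was left out, where an arm of 2 samples was assumed to vary like the others. The wild-type comparison called 5769 genes and 4697 to 5718 with 1 sample left out. Its count fell below that range with Xist as a covariate, which gave the fewest calls of all its settings. It also did so with the length trend, the GC trend or both removed, and under the filter of 5 FPKM, which tests fewer genes. The wild-type females were all at 3 months, so sex and age were only partly separated there. Some genes named above changed sign. With the length trend removed the differences were -0.18 for Bsn, 0.21 for C1qa, 0.11 for Rpl15 and 0.00 for Pdgfra, and with the GC trend removed 0.25 for C1qa, 0.24 for Grin1 and 0.22 for Irs2. With both removed they were 0.02 for Aldoa, 0.00 for Apoe, -0.01 for Bsn, 0.38 for C1qa, 0.17 for Gfap, 0.15 for Grin1, 0.05 for H2-D1;H2-L, -0.20 for Hnrnpu, -0.05 for Pdgfra, 0.03 for Rpl15 and 0.32 for Sst. Quantile normalization gave 0.02 for Rpl15 and 0.19 for Sst, and median-ratio scaling 0.00 for Rpl15. The cause was not tested. Depth differs by more than 2 times between samples of an age, which limits the precision of genes near 1 FPKM most.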
